A study of Mus musculus with 8 samples.

Results

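The replication-dependent histone genes encode the linker histone H1 and the core histones H2A, H2B, H3 and H4 that package newly copied DNA. They lie in clusters and are transcribed mainly in S phase, the stage of the cell cycle in which DNA is copied. Most of their mRNAs end in a short RNA hairpin in place of a poly(A) tail. The hairpin is bound by the stem-loop binding protein Slbp, and the mRNA is cut just after it with the help of the U7 small nuclear ribonucleoprotein. Some members also make spliced or longer transcripts that end in a poly(A) tail. Members were taken as the rows of the gene tables whose Ensembl ID has a symbol that begins with Hist1h, Hist2h, Hist3h or Hist4h in the GENCODE vM21 annotation of the mouse genome build GRCm38 (mm10). The annotation holds 70 such genes, of which 64 were in either table, out of 18821 genes in all. There were 60 members among the 17938 genes listed for the knockdown arm, 63 among the 18292 for the overexpression arm, and 59 among the 17409 listed for both.

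All 8 libraries were made from embryonic stem (ES) cells of the mouse line J1, labelled as strain 12910la and grown on gelatin in medium with 15% serum and 10 ng/ml leukaemia inhibitory factor. KD Zscan4 cells carried an shRNA against Zscan4 in the pSuper-puro vector, and KD control cells a random control in the same arm. OE Zscan4 cells carried the coding sequence of Zscan4c in the pCMV-tag2 vector, and OE control cells were the control of that arm. Both Zscan4 groups are labelled by genotype as Zscan4 knocked down or Zscan4c overexpressed, and both control groups as wild type. Zscan4c is a zinc finger gene of the mouse 2-cell embryo that small numbers of ES cells switch on at a given time. Cells received 1000 ng of plasmid, and selection began after 24 h. The knockdown arm had 7 days of puromycin at 2 µg/ml and the overexpression arm 10 days of G418 at 500 µg/ml, so the arms also differ in drug and length of selection. Monoclonal cells were then picked, so each line may be 1 clone. Each group had 2 libraries, and the labels do not say whether they came from separate clones or cultures, so every p-value measures only the spread between these libraries, which may be technical.

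The tables held values normalised by the authors, from which the whole number of reads per gene could be recovered in every library. These summed to between 17392177 and 22381633 gene reads per library. Zscan4c had 11.2 and 15.5 normalised reads in the KD Zscan4 libraries, against 575 and 566 in the KD control libraries. In the overexpression arm it had 1074 and 981 normalised reads in the OE Zscan4 libraries, against 60.1 and 75.2 in the OE control libraries, so both agents moved the gene they were aimed at in the labelled direction. Of 8 ES cell markers, among them Pou5f1 and Nanog, 4 were higher and 2 lower in KD Zscan4 cells, with sums of 108502 and 106492 normalised reads in KD Zscan4 and 104577 and 105914 in KD control. In OE Zscan4 cells 7 were higher and 1 lower, with sums of 117645 and 116455 in OE Zscan4 and 79708 and 79028 in OE control. All 7 markers of 2-cell-like cells were lower in KD Zscan4 cells, with sums of 73.1 and 107 normalised reads in KD Zscan4 and 1587 and 1431 in KD control. With Zscan4c raised, 5 of 6 measured were higher, with sums of 2396 and 2198 in OE Zscan4 and 166 and 176 in OE control. All 9 markers of primitive endoderm, a lineage that ES cell cultures can form, were lower in KD Zscan4 cells, with sums of 1155 and 1073 normalised reads in KD Zscan4 and 6089.9 and 5980.4 in KD control. In OE Zscan4 cells 6 of 8 were lower, with sums of 968 and 926 in OE Zscan4 and 1655 and 1561 in OE control. Of fibroblast markers 1 was higher and 2 lower in each arm, of 6 measured in the knockdown arm and 5 in the overexpression arm. Their sums were 3828 and 3551 in KD Zscan4 and 5527 and 5750.2 in KD control, and 2662 and 2655 in OE Zscan4 and 2262 and 2138 in OE control. No measured marker was at 0 in all 4 libraries of an arm. The part of these ES cell and other markers in the histone values was not tested, and in such bulk libraries fewer cells of a type and less RNA per cell cannot be told apart.

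The hairpin that defines the group was looked for in the annotated transcripts, within 200 bases after the stop codon. It was taken as a stem of 6 bases beginning with GG, a loop of 4 bases beginning with TT, and the reverse complement of the stem. Of the 51 members with at least 16 bases annotated after the stop codon, 43 (84.3%) held such a hairpin. The same was true of 13 of 20929 other protein-coding genes with at least 16 such bases (0.0621%). The hairpins of the members below are shown in DNA letters, 5′ to 3′ in the sense of the transcript, as examples of each form of the stem or loop met among the called members described below. Capitals mark the paired arms of the stem.
Hist1h1c: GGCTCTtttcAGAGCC
Hist1h2bh: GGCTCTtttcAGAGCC
Hist1h3e: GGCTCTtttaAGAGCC
Hist1h4d: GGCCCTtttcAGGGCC
Hist1h4i: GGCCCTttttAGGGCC
Hist1h4j: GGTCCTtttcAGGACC
The first of these, shared by Hist1h1c and Hist1h2bh, was the commonest form, in 26 members, and the form of Hist1h4d stood in 7. The form of Hist1h3e stood in 6 members, and the forms of Hist1h4i and of Hist1h4j in 2 each. No such hairpin was found in the readable sequence of Hist1h1a, Hist1h2bc, Hist1h2bq, Hist1h2br, Hist2h2be, Hist1h3g, Hist2h3b and Hist1h4a. This does not show that they lack it. Transcripts were read as spliced, and Hist1h2bc is annotated with 2 exons and Hist1h2bq and Hist1h2br with up to 3. Hist1h1a and Hist2h3b had only 48 and 37 bases to read after the stop codon. A further 13 members could not be read. Of these, Hist1h2aj and Hist1h2al are annotated as pseudogenes without a stop codon, and the others ended too soon after it.

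The libraries were made with an mRNA kit, and how it selected mRNA is not given in the sources used here. Over the 4 libraries of the knockdown arm a member had between 20 and 1401 reads, with a median of 68.5. Over the 4 libraries of the overexpression arm the range was 20 to 861 and the median 88. All members together held between 79.4 and 127 RPM, a share of the gene reads of the library, in the 8 libraries. Hist1h1c, Hist1h2bc and Hist1h4i had the most reads of their classes in both arms, and all 3 belong to the 25 members annotated with more than 1 exon or with more than 200 bases after the stop codon. The H2A genes Hist1h2ae and Hist1h2af, with 440 and 291 reads in the knockdown arm, were the highest members without such an annotation. Hist1h2ae, with 199 bases after the stop codon, lay just under the limit. These reads were not divided by transcript length. Per kilobase of annotated exon, averaged over the groups, Hist1h2af was the highest member (242 normalised reads), ahead of Hist1h1c (180). The 6 members absent from both tables were Hist1h2aa, Hist1h2ba, Hist1h2bn, Hist2h2ab, Hist2h2ac and Hist3h2bb-ps. Hist1h1t, Hist1h2bm, Hist1h4m and Hist4h4 were not in the knockdown table and Hist1h2bf was not in the overexpression table.

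**Figure D1:**
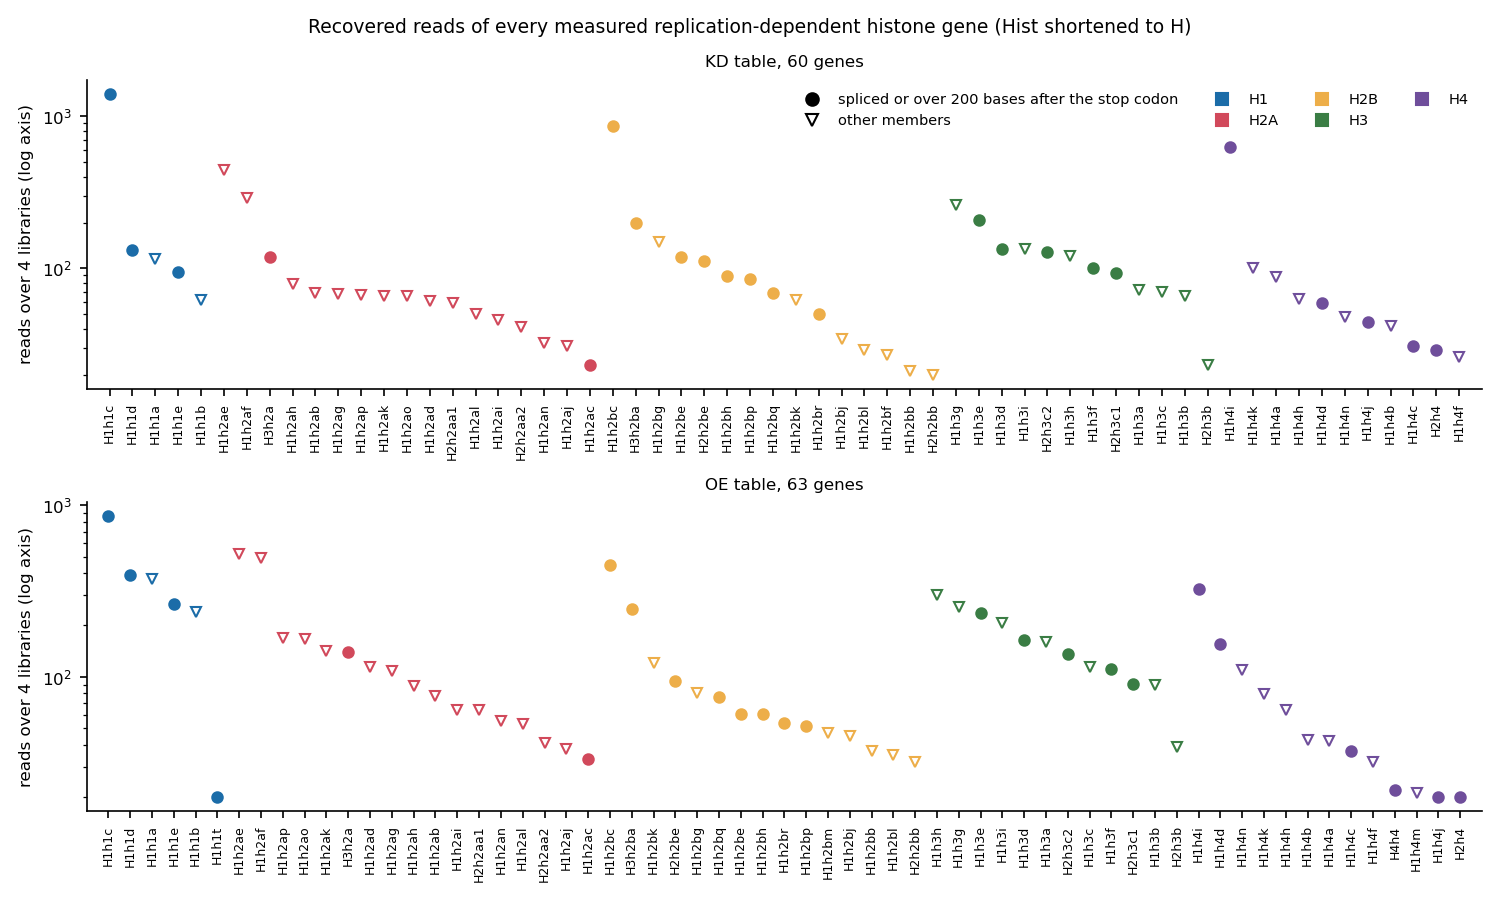
Recovered reads summed over the 4 libraries of each arm for every measured histone gene, on a log axis, ordered by class and by reads. Filled circles are members annotated with more than 1 exon or over 200 bases after the stop codon, open triangles the others; Hist1h1c with 1401 reads in the knockdown arm and 861 in the overexpression arm was the highest in each.

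Near-identical coding sequences limit how reads can be assigned. Of all windows of 75 bases in a member's annotated transcripts, a median of 54.1% occurred in no other annotated gene. Hist1h1a, Hist1h1b, Hist1h1t, Hist2h2be and Hist2h4 were unique throughout, whereas Hist2h2aa1, Hist2h2aa2, Hist2h2bb, Hist2h3b and Hist2h3c1 had no unique window, so the values of these last 5 are uncertain. In all, 17 members had under 20% unique windows, and reads of these could be shared with close copies. They include Hist1h2af (13.2%), and among the members called in any comparison Hist1h4n (16.6%). An exon of 23 members overlapped an exon of another annotated gene, and the strand setting of the counting is not given in the sources used here. Of the 19 members called in any comparison, 1 had such an overlap, Hist1h2ab, with a microRNA gene on the opposite strand that was in neither table.

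The first comparison set KD Zscan4 cells against KD control cells and asked how histone transcripts stood after Zscan4 depletion. With limma on log2(normalised value + 1) and Benjamini-Hochberg adjustment over all genes, 9 of 60 members (15%) fell and none rose, where 35.7% of all 17938 genes passed the same test, 18.5% of them lower and 17.2% higher. These shares of all genes were not matched for depth. The median gene of the arm averaged 219 normalised reads per library, while the median member had 68.5 reads over all 4 libraries. Both KD Zscan4 libraries lay below both KD control libraries for 25 of 60 members and above them for 5. The groups did not overlap for 67.8% of all genes, with 33.8% lower and 34% higher. No member passed an unadjusted p of 0.05 in the higher direction, and edgeR and DESeq2 also called 0 higher. The genes that fell were the linker histone gene Hist1h1c, the H2A gene Hist1h2ab, the H2B genes Hist1h2bc, Hist1h2bg and Hist1h2bh, the H3 gene Hist1h3g, and the H4 genes Hist1h4h, Hist1h4i and Hist1h4j. The fold change was negative for 47 of 60 members with a median of -0.33 on the log2 scale, against 49.1% negative and a median of 0.01 over all genes. Without KD control replicate 2 the median was -0.56 and 4 members were called. Without KD control replicate 1 the median was -0.15, and without KD Zscan4 replicate 1 it was -0.50. DESeq2 on the recovered reads called 3 members among 4141 genes of any kind. Summed over all members there were 1707 and 1587 recovered reads in the KD Zscan4 libraries, against 2687 and 1912 in the KD control libraries. In normalised reads the sum was 1636 ± 136 in KD Zscan4 and 2277 ± 183 in KD control (SD, n = 2 each), a ratio of 0.72.

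Hist1h1c, which encodes one of the somatic linker histones that bind DNA between nucleosomes, had 236 and 266 normalised reads (233 and 274 recovered reads) in the KD Zscan4 libraries, against 450.5 and 439 (503 and 391) in the KD control libraries. Both KD Zscan4 libraries were lower than both KD control libraries. The log2 fold change was -0.82 (SE 0.10, adjusted p = 4.72e-05). The gene lies at chr13:23738808-23740367, plus strand, has 1 exon with 880 bases after the stop codon, and 93.3% of its windows were unique. The other linker histone genes did not pass the test in this arm. Hist1h1a had 26.4 and 35.9 normalised reads in the KD Zscan4 libraries, against 33.1 and 16.8 in the KD control libraries, and its groups overlapped. Hist1h1b had 15.2 and 22.3 normalised reads in the KD Zscan4 libraries, against 13.4 and 10.1 in the KD control libraries, with a log2 fold change of 0.62 (SE 0.39, adjusted p = 0.242). Hist1h1d had 34.5 and 28.1 normalised reads in the KD Zscan4 libraries, against 38.5 and 29.2 in the KD control libraries, again with overlapping groups. Hist1h1e had 29.4 and 24.3 normalised reads in the KD Zscan4 libraries, against 23.3 and 15.7 in the KD control libraries. For Hist1h1b and Hist1h1e both KD Zscan4 libraries lay above both KD control libraries. The 5 measured H1 genes summed to 342 and 377 normalised reads in the KD Zscan4 libraries, against 559 and 511 in the KD control libraries. This ratio of 0.67 reflects Hist1h1c, the most abundant member. Of the 5 fold changes 3 were positive, and their median was 0.37 on the log2 scale.

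Among the core histones that form the outer pairs of the nucleosome, the 17 H2A genes summed to 405 and 316 normalised reads in the KD Zscan4 libraries, against 484 and 384 in the KD control libraries. These sums overlapped, and 15 of 17 fold changes were negative. Hist1h2aj and Hist1h2al, annotated as pseudogenes, are counted among the 17. Hist1h2ab was the H2A gene called, at 13.2 and 7.77 normalised reads (13 and 8 recovered reads) in the KD Zscan4 libraries, against 19.7 and 29.2 (22 and 26) in the KD control libraries, with a log2 fold change of -1.16 (SE 0.40, adjusted p = 0.0387). The call was lost with DESeq2 (adjusted p = 0.202), without KD control replicate 2 (0.253) and without KD Zscan4 replicate 2 (0.156). The most abundant H2A gene, Hist1h2ae, had 126 and 92.2 normalised reads in the KD Zscan4 libraries, against 122 and 95.5 in the KD control libraries, with groups that overlapped.

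The 15 H2B genes summed to 417 and 402 normalised reads in the KD Zscan4 libraries, against 574 and 511 in the KD control libraries, a ratio of 0.75. Hist1h2bc (chr13:23684199-23692908, plus strand), annotated with a spliced transcript of 2 exons, had 153 and 182 normalised reads (151 and 187 recovered reads) in the KD Zscan4 libraries, against 273 and 241 (305 and 215) in the KD control libraries. Its KD Zscan4 libraries both lay under its KD control libraries, and the log2 fold change was -0.62 (SE 0.13, adjusted p = 0.00252). Hist1h2bh, with 1258 bases annotated after the stop codon, had 14.2 and 11.6 normalised reads (14 and 12 recovered reads) in the KD Zscan4 libraries, against 30.4 and 32.6 (34 and 29) in the KD control libraries. The groups were well apart at this low depth, and the log2 fold change was -1.23 (SE 0.32, adjusted p = 0.0112); DESeq2 (adjusted p = 0.102) and leaving out KD control replicate 2 (0.0736) ended the call. Hist1h2bg had 27.4 and 27.2 normalised reads in the KD Zscan4 libraries, against 48.4 and 43.8 in the KD control libraries and a log2 fold change of -0.73 (SE 0.25, adjusted p = 0.0397), a call that was lost with DESeq2 (adjusted p = 0.241) and without any 1 of the 4 libraries (0.0749 to 0.183).

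The 12 H3 genes summed to 339 and 264 normalised reads in the KD Zscan4 libraries, against 411 and 384 in the KD control libraries, a ratio of 0.76, with 10 of 12 fold changes negative. Hist1h3g was called, at 54.8 and 48.5 normalised reads (54 and 50 recovered reads) in the KD Zscan4 libraries, against 71.6 and 85.4 (80 and 76) in the KD control libraries, with a log2 fold change of -0.59 (SE 0.20, adjusted p = 0.0386). Its groups did not overlap, but DESeq2 (adjusted p = 0.216) and 3 of the 4 fits without 1 library (0.0564 without KD control replicate 1, 0.247 without KD control replicate 2 and 0.120 without KD Zscan4 replicate 2) ended the call. Hist1h3e had 52.8 and 53.4 normalised reads in the KD Zscan4 libraries, against 51.9 and 49.4 in the KD control libraries, nearly level in all 4.

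The 11 H4 genes, which all encode the same H4 protein or close to it, summed to 229 and 182 normalised reads in the KD Zscan4 libraries, against 379 and 357 in the KD control libraries. The ratio of 0.56 was the lowest of the 5 classes in this arm, though the classes were not tested against each other. Hist1h4i (chr13:22040636-22041362, minus strand), with 376 bases after the stop codon, had 109 and 96.1 normalised reads (107 and 99 recovered reads) in the KD Zscan4 libraries, against 206 and 211 (230 and 188) in the KD control libraries. Both KD Zscan4 libraries held about as many reads as each other and clearly fewer than either control. Its log2 fold change was -1.02 (SE 0.14, adjusted p = 1.15e-04). Hist1h4h had 8.12 and 7.77 normalised reads (8 and 8 recovered reads) in the KD Zscan4 libraries, against 26.9 and 19.1 (30 and 17) in the KD control libraries, and Hist1h4j had 8.12 and 0.971 normalised reads (8 and 1 recovered reads) in the KD Zscan4 libraries, against 12.5 and 23.6 (14 and 21) in the KD control libraries. The log2 fold changes were -1.40 (SE 0.39, adjusted p = 0.0144) for Hist1h4h and -2.11 (SE 0.68, adjusted p = 0.029) for Hist1h4j. Both rest on few reads: DESeq2 gave adjusted p = 0.110 for Hist1h4h and 0.113 for Hist1h4j, the Hist1h4h call was lost without KD control replicate 1 (0.126), and the Hist1h4j call without KD control replicate 2 (0.166) and without KD Zscan4 replicate 2 (0.144), which held 1 read and took its log2 fold change to -1.001. Hist1h1c, Hist1h2bc and Hist1h4i kept their calls in 11 of 11 alternatives. Without these 3 genes, a set chosen after their values were seen, the ratio of summed normalised reads over the other 57 members was 0.82.

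The second comparison set OE Zscan4 cells against OE control cells and asked how histone transcripts stood when Zscan4c was raised. By the same test 2 of 63 members rose and 9 fell (17.5% in all), where 44.3% of all 18292 genes passed, 22.3% higher and 22.1% lower. Again the shares of all genes were not matched for depth. The median gene here averaged 210 normalised reads per library, while the median member had 88 reads over all 4 libraries. The H2B gene Hist1h2bc and the H4 gene Hist1h4i rose. The linker histone genes Hist1h1a, Hist1h1b, Hist1h1c and Hist1h1d, the H3 genes Hist1h3e and Hist2h3c2, and the H4 genes Hist1h4c, Hist1h4d and Hist1h4n fell. The median over the members was -0.23 on the log2 scale with 39 of 63 negative, against a median of -0.0022 and 50.2% negative over all genes. The OE Zscan4 libraries both lay below both OE control libraries for 20 of 63 members and above them for 10. The groups did not overlap for 71.2% of all genes, with 35.5% lower and 35.7% higher. DESeq2 called 5 members among 5661 genes of any kind. Without OE Zscan4 replicate 1 the median was -0.03 and 5 members were called, and without OE Zscan4 replicate 2 the median was -0.36. Summed over members there were 1777 and 2265 recovered reads in the OE Zscan4 libraries, against 2583 and 2243 in the OE control libraries. In normalised reads the sum was 2009 ± 169 in OE Zscan4 and 2387 ± 108 in OE control (SD, n = 2 each), a ratio of 0.84.

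Of the 6 linker histone genes 4 fell. Hist1h1b (chr13:21779883-21780625, minus strand) had 35.1 and 39.5 normalised reads (33 and 42 recovered reads) in the OE Zscan4 libraries, against 86.8 and 73.1 (91 and 71) in the OE control libraries. The OE Zscan4 libraries were at less than each OE control library, and the log2 fold change was -1.08 (SE 0.23, adjusted p = 8.89e-04). Hist1h1a (chr13:23763666-23764406, plus strand) had 58.5 and 70.5 normalised reads (55 and 75 recovered reads) in the OE Zscan4 libraries, against 111 and 129 (116 and 125) in the OE control libraries, with a log2 fold change of -0.88 (SE 0.19, adjusted p = 9.54e-04). Every 75-base window of both genes was unique among annotated transcripts. Hist1h1c had 164 and 163 normalised reads (154 and 174 recovered reads) in the OE Zscan4 libraries, against 285 and 241 (299 and 234) in the OE control libraries. Its OE Zscan4 libraries were nearly equal and lay under both OE control libraries, and the log2 fold change was -0.68 (SE 0.13, adjusted p = 3.74e-04). Hist1h1d had 72.3 and 83.6 normalised reads in the OE Zscan4 libraries, against 118 and 114 in the OE control libraries, a log2 fold change of -0.57 (SE 0.18, adjusted p = 0.0129); DESeq2 (adjusted p = 0.108) and leaving out OE Zscan4 replicate 1 (0.104) ended that call. In all 6 H1 genes both OE Zscan4 libraries were below both OE control libraries, where such separation in the lower direction was seen for 35.5% of all genes. The remaining H1 genes were Hist1h1e, with a log2 fold change of -0.35 (SE 0.21, adjusted p = 0.192), and the testis linker histone Hist1h1t, with -1.22 (SE 0.66, adjusted p = 0.144) from 20 reads in all. The H1 sum was 391 and 415 normalised reads in the OE Zscan4 libraries, against 671 and 650.0 in the OE control libraries, a ratio of 0.61.

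**Figure D2:**
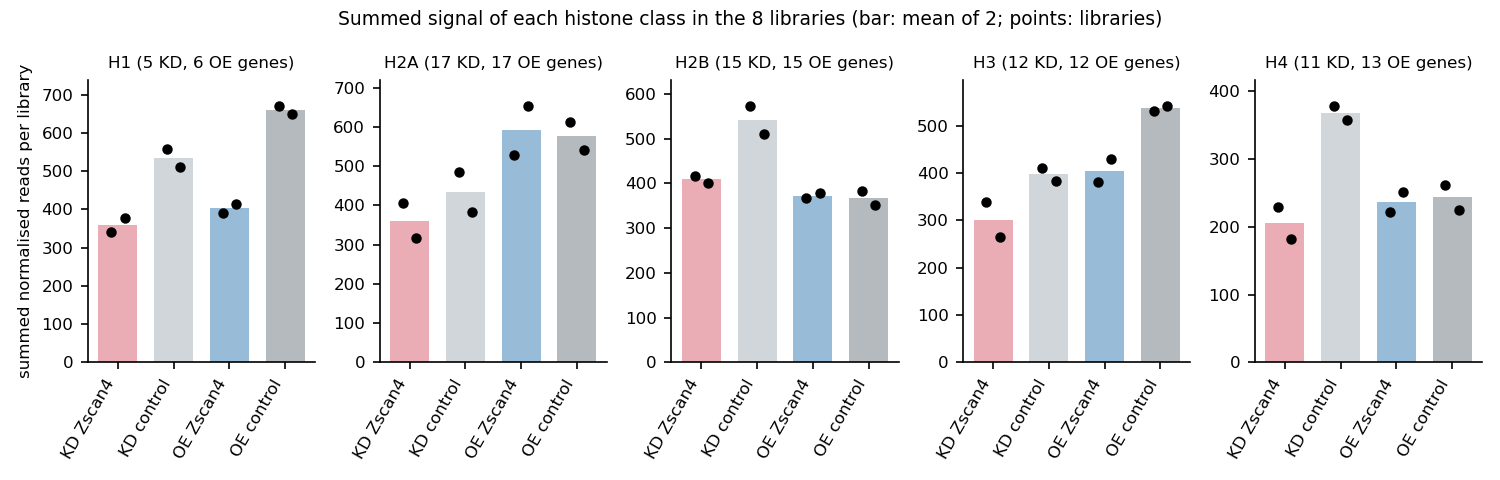
Normalised reads summed over the genes of each histone class, with bars at the mean of 2 libraries and a point per library, for KD Zscan4, KD control, OE Zscan4 and OE control. The H1 sums of OE Zscan4 cells (391 and 415) lay under those of OE control cells (671 and 650.0), and the H4 sums of KD Zscan4 cells (229 and 182) under those of KD control cells (379 and 357).

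None of the 17 H2A genes passed the test in this arm with limma, none had an unadjusted p under 0.05, and edgeR and DESeq2 called 0. Their sum was 528 and 654 normalised reads in the OE Zscan4 libraries, against 613 and 541 in the OE control libraries, with overlapping groups and a ratio of 1.02. Hist1h2ae had 121 and 139 normalised reads in the OE Zscan4 libraries, against 147 and 104 in the OE control libraries, and Hist1h2af had 108 and 147 normalised reads in the OE Zscan4 libraries, against 120.1 and 113 in the OE control libraries. Neither gene separated the groups. The H2B genes likewise summed to similar values, 367 and 379 normalised reads in the OE Zscan4 libraries, against 384 and 352 in the OE control libraries. Hist1h2bc had 132 and 124 normalised reads (124 and 132 recovered reads) in the OE Zscan4 libraries, against 104 and 87.6 (109 and 85) in the OE control libraries, with both OE Zscan4 libraries above both OE control libraries and a log2 fold change of 0.42 (SE 0.17, adjusted p = 0.0496). This call lay at the threshold: it was lost with a pseudocount of 5 (adjusted p = 0.0522), TMM factors (0.0583), edgeR (0.0577) and DESeq2 (0.240), and without OE control replicate 2 (0.227), OE Zscan4 replicate 1 (0.210) or OE Zscan4 replicate 2 (0.114). Hist1h2bh had 17.01 and 19.7 normalised reads in the OE Zscan4 libraries, against 13.3 and 10.3 in the OE control libraries, which did not pass, with a log2 fold change of 0.60 (SE 0.40, adjusted p = 0.238).

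The H3 genes summed to 381 and 429 normalised reads in the OE Zscan4 libraries, against 532 and 543 in the OE control libraries, a ratio of 0.75, and 11 of 12 fold changes were negative. Hist1h3e had 38.3 and 46.0 normalised reads (36 and 49 recovered reads) in the OE Zscan4 libraries, against 73.4 and 74.2 (77 and 72) in the OE control libraries, with a log2 fold change of -0.80 (SE 0.22, adjusted p = 0.00741). The control libraries were nearly equal and both lay above the OE Zscan4 libraries. DESeq2 (adjusted p = 0.0760) and leaving out OE Zscan4 replicate 1 (0.0602) ended the call. Hist2h3c2 had 15.9 and 30.1 normalised reads in the OE Zscan4 libraries, against 48.6 and 39.1 in the OE control libraries, a log2 fold change of -0.96 (SE 0.32, adjusted p = 0.0229) that was lost with DESeq2 (adjusted p = 0.151), without OE control replicate 1 (0.0985) and without OE Zscan4 replicate 1 (0.252, log2 fold change -0.52). Of the windows of Hist1h3e 40.6% were unique, and of those of Hist2h3c2 37.4%.

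The H4 genes moved in both directions. Their sum was 222 and 251 normalised reads in the OE Zscan4 libraries, against 262 and 225 in the OE control libraries, with overlapping groups and a ratio of 0.97. Hist1h4i had 102 and 102 normalised reads (96 and 109 recovered reads) in the OE Zscan4 libraries, against 62.9 and 54.6 (66 and 53) in the OE control libraries, with both OE Zscan4 libraries above both OE control libraries and a log2 fold change of 0.79 (SE 0.19, adjusted p = 0.00271). Hist1h4d (chr13:23581598-23582735, plus strand), with 822 bases after the stop codon and 96.3% unique windows, had 21.3 and 22.5 normalised reads (20 and 24 recovered reads) in the OE Zscan4 libraries, against 57.2 and 52.5 (60 and 51) in the OE control libraries. Here the OE Zscan4 libraries were the lower ones, with a log2 fold change of -1.29 (SE 0.27, adjusted p = 9.19e-04). Hist1h4n had 17.01 and 18.8 normalised reads in the OE Zscan4 libraries, against 36.2 and 37.1 in the OE control libraries and a log2 fold change of -0.996 (SE 0.31, adjusted p = 0.0143), and Hist1h4c had 3.19 and 5.64 normalised reads in the OE Zscan4 libraries, against 17.2 and 10.3 in the OE control libraries and a log2 fold change of -1.44 (SE 0.53, adjusted p = 0.0362). The Hist1h4n call was lost with DESeq2 (adjusted p = 0.125), without OE control replicate 2 (0.0560) and without OE Zscan4 replicate 1 (0.0591). The Hist1h4c call was lost with DESeq2 (0.192), without OE control replicate 1 (0.247) and without OE Zscan4 replicate 1 (0.158). Hist1h1a, Hist1h1b, Hist1h1c, Hist1h4d and Hist1h4i kept their calls in 11 of 11 alternatives.

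**Figure D3:**
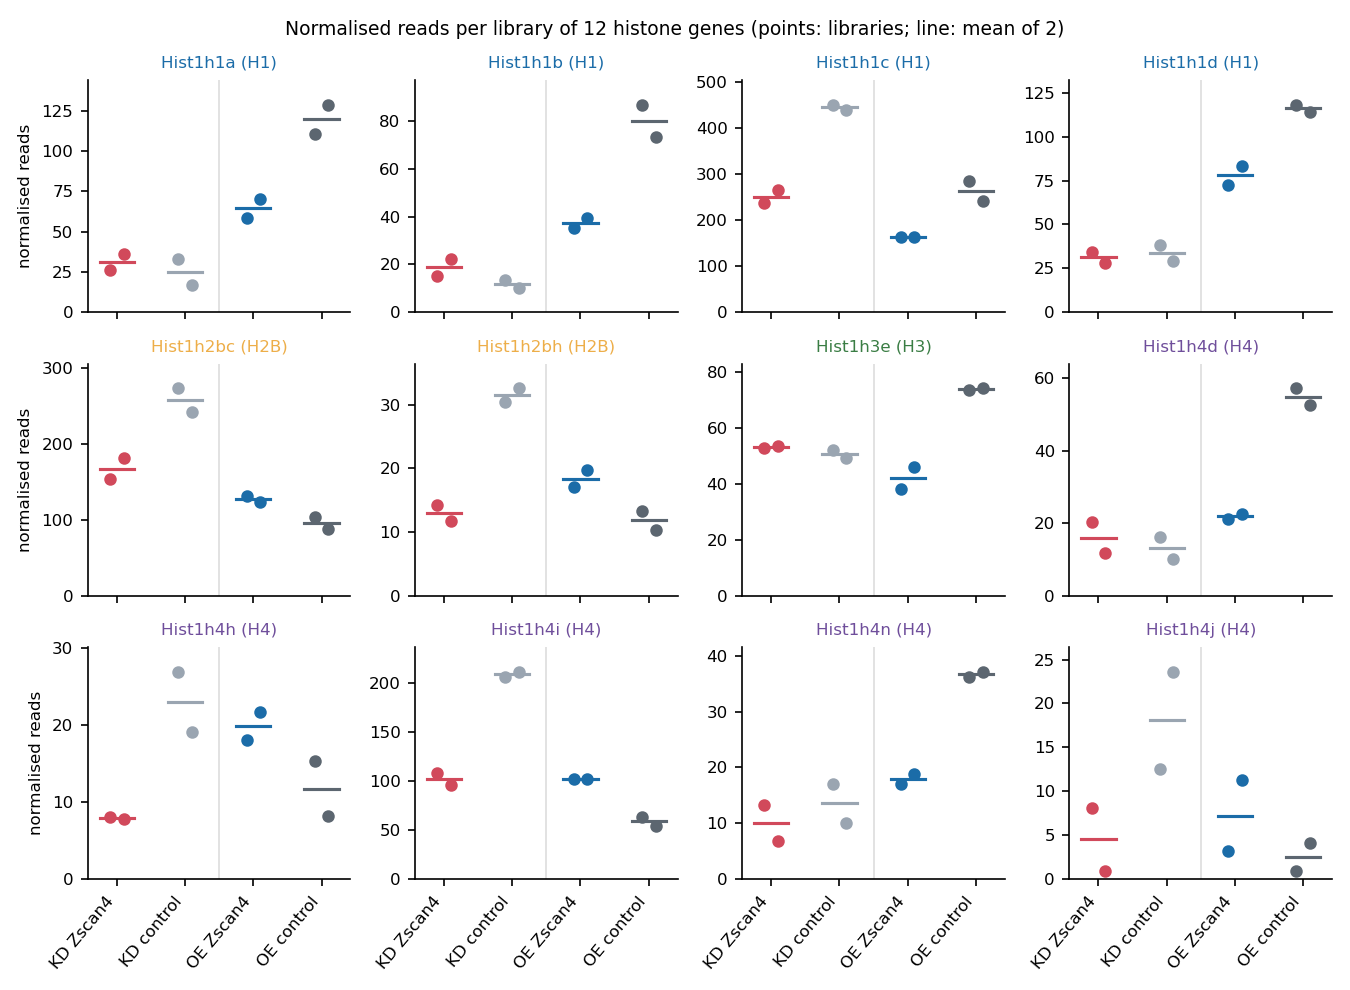
Normalised reads per library of 12 histone genes, with a point per library and a line at the mean of 2, for KD Zscan4, KD control, OE Zscan4 and OE control. Hist1h4i was below its control in KD Zscan4 cells (109 and 96.1, against 206 and 211) and above it in OE Zscan4 cells (102 and 102, against 62.9 and 54.6), whereas Hist1h1c was below its control in both.

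The arms share no library, and whether a gene's effect differed between them was tested directly, as the effect in the overexpression arm minus the effect in the knockdown arm. Of the 59 shared members 11 (18.6%) differed, 6 with a higher and 5 with a lower effect in the overexpression arm, where 44.7% of all 17409 shared genes did so, 22.9% higher and 21.8% lower. The share of all shared genes was likewise not matched for depth. Leaving out KD control replicate 2 left 5 calls, leaving out OE Zscan4 replicate 1 left 6, and leaving out OE control replicate 2 left 7. The difference was largest in relation to its error for Hist1h4i, at 1.81 (SE 0.22, adjusted p = 7.19e-06). Hist1h2bc gave 1.04 (SE 0.21, adjusted p = 6.56e-04), Hist1h2bh 1.83 (SE 0.48, adjusted p = 0.0057) and Hist1h4h 2.16 (SE 0.56, adjusted p = 0.00506). These 4 genes had lower values than control under depletion and higher mean values than control under overexpression, and for Hist1h4i and Hist1h2bc both changes passed the test in their own arm. Hist1h1b had the opposite sign, at -1.70 (SE 0.42, adjusted p = 0.0036). These 5 genes kept the call in 12 of 12 alternatives. Hist1h1a, at -1.25 (SE 0.41, adjusted p = 0.0199), and Hist1h4d, at -1.54 (SE 0.49, adjusted p = 0.0178), also had a lower effect in the overexpression arm, and each kept its call in 8 of 12 alternatives. The Hist1h1a call was lost without KD control replicate 2 (-0.78, adjusted p = 0.105), KD Zscan4 replicate 2 (0.0648), OE control replicate 2 (0.0630) or OE Zscan4 replicate 1 (0.0818). The Hist1h4d call was lost without KD control replicate 2 (0.0749), KD Zscan4 replicate 1 (0.0875), OE control replicate 1 (0.0537) or OE Zscan4 replicate 1 (0.0523).

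The remaining members whose effects differed rested on few reads or on values near the threshold. Hist1h3e gave -0.87 (SE 0.30, adjusted p = 0.0261) and kept its call in 6 of 12 alternatives, losing it when any 1 of 6 libraries was left out, all but KD control replicate 1 and OE Zscan4 replicate 2 (0.0544 to 0.0879). Hist1h4j gave 3.29 (SE 1.08, adjusted p = 0.0206), with 3.19 and 11.3 normalised reads in the OE Zscan4 libraries, against 0.954 and 4.12 in the OE control libraries, so that its groups overlapped in the overexpression arm. Hist1h4a had 20.3 and 14.6 normalised reads in the KD Zscan4 libraries, against 28.7 and 22.5 in the KD control libraries, and 12.8 and 15.03 normalised reads in the OE Zscan4 libraries, against 9.54 and 4.12 in the OE control libraries, and gave 1.55 (SE 0.59, adjusted p = 0.0429). Hist3h2ba had 58.9 and 50.5 normalised reads in the KD Zscan4 libraries, against 41.2 and 48.3 in the KD control libraries, and 43.6 and 57.3 normalised reads in the OE Zscan4 libraries, against 69.6 and 75.2 in the OE control libraries, and gave -0.81 (SE 0.31, adjusted p = 0.0469). In neither arm did Hist1h4a or Hist3h2ba pass the test by itself. The difference kept its call in 7 of 11 alternatives for Hist1h4j, and in 5 of 12 for each of Hist1h4a and Hist3h2ba. For Hist1h4j it was lost without KD control replicate 2, KD Zscan4 replicate 2 (where it was 2.18), OE control replicate 1 or OE Zscan4 replicate 2, with adjusted p from 0.0733 to 0.119. Hist1h4a lost it with the replicate block (0.0519) and without any 1 of 6 libraries, all but KD Zscan4 replicate 1 and OE control replicate 1 (0.0624 to 0.167), and was at 1.03 without OE control replicate 2. Hist3h2ba lost it with the replicate block (0.0631) and without any 1 of 6 libraries, all but KD Zscan4 replicate 2 and OE Zscan4 replicate 2 (0.0528 to 0.171). Hist3h2ba lies on chromosome 11, whose genes had a median log2 fold change of -0.35 in the overexpression arm with 78.7% negative, and the part of this in its value was not tested. The other members lie on chromosomes 13 (53 members), 3 (8 members), 6 (Hist4h4) and 11 (Hist3h2a). Hist1h1c was the single member called lower in both arms, and the difference between its effects did not pass the test, at 0.15 (SE 0.16, adjusted p = 0.488).

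**Figure D4:**
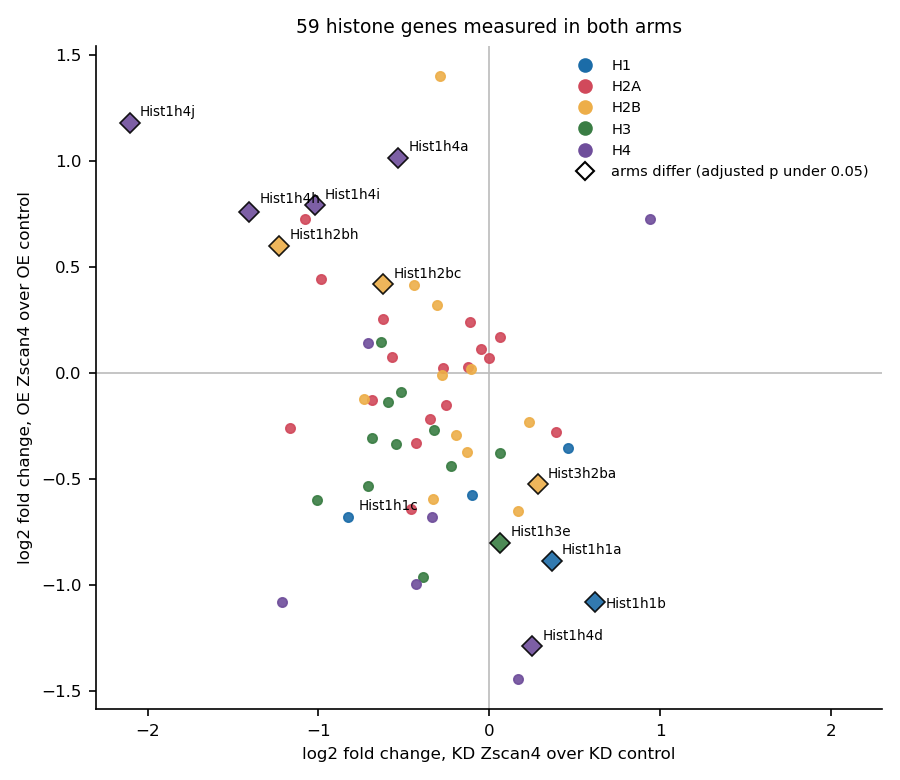
Log2 fold change of OE Zscan4 over OE control (vertical) against that of KD Zscan4 over KD control (horizontal) for the 59 histone genes in both tables, coloured by class. Diamonds mark the 11 genes whose effects differed; Hist1h4i, Hist1h4h, Hist1h2bh and Hist1h2bc lie at the upper left, Hist1h1a, Hist1h1b and Hist1h4d at the lower right, and Hist1h1c among the genes negative in both.

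Across the 59 members 25 fold changes were negative in both arms, 21 were negative under depletion and positive under overexpression, 11 were the reverse and 2 were positive in both. Pearson's r of the fold changes was -0.38 and Spearman's rho -0.34, across genes that share libraries and are not independent replicates. The control libraries of the arms also stood apart for several members, although the tables were normalised separately and no test was made across them. Hist1h1b averaged 80.0 normalised reads in OE control and 11.8 in KD control, a ratio of 6.79. Hist1h1a had a ratio of 4.79 and Hist1h4d of 4.18, whereas Hist1h2bc had 0.37 and Hist1h4i 0.28.

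Members were next divided by whether their annotation allows a poly(A) transcript. The 23 knockdown-arm members with more than 1 exon or more than 200 bases after the stop codon summed to 965 and 941 normalised reads in the KD Zscan4 libraries, against 1481 and 1375 in the KD control libraries, a ratio of 0.67, and 5 of them fell. The 37 others summed to 767 and 599.9 normalised reads in the KD Zscan4 libraries, against 925 and 773 in the KD control libraries, a ratio of 0.81, and 4 of them fell, where 18.5% of all genes fell. The median log2 fold change was -0.39 for the extended members and -0.32 for the others. Hist1h2bg, which fell, has 200 bases after the stop codon and Hist1h2ae has 199. Both were counted among the others, so the ratios and counts depend on where the limit was set. Hist1h1c, Hist1h2bc and Hist1h4i are all extended, and the 20 extended members without these 3 had a ratio of 0.83. The 3 were chosen after their values were seen, and no gene was taken out of the other set in the same way. For the overexpression arm the 25 extended members had a ratio of 0.82, with 2 higher and 6 lower, and the 38 others a ratio of 0.86, with 3 lower, where 22.3% of all genes were higher and 22.1% lower. Without the same 3 genes the extended ratio was 0.75 in this arm. The difference between the sets was not tested. Of a list of 10 members for which polyadenylated transcripts are known as background, 9 were measured in the knockdown arm, where Hist1h1c and Hist1h2bc fell. All 10 were measured in the overexpression arm, where Hist1h2bc rose and Hist1h1c and Hist1h4c fell. The others on this list were at low levels or did not pass. Hist2h2be had 28.4 and 31.1 normalised reads in the KD Zscan4 libraries, against 29.6 and 21.3 in the KD control libraries, and Hist3h2a had 21.3 and 23.3 normalised reads in the KD Zscan4 libraries, against 34.9 and 38.2 in the KD control libraries, with a log2 fold change of -0.69 (SE 0.28, adjusted p = 0.0735). Hist1h2ac had 23 reads over the 4 knockdown libraries, Hist2h2aa1 59 and Hist2h2aa2 41, and Hist4h4 had 22 over the 4 overexpression libraries.

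Calls were also counted by depth and by uniqueness, and no difference between these sets was tested. The shares of all genes set beside them cover genes of every depth and were not matched to the members. In the knockdown arm 5 of the 20 members with at least 100 reads were called (25%) and 4 of the 40 with fewer (10%), both under the 35.7% of all genes. In the overexpression arm 10 of 28 with at least 100 reads were called (35.7%) and 1 of the 35 with fewer, Hist1h4c (2.86%), under the 44.3% of all genes. Of the 31 knockdown-arm members with at least 50% unique windows 8 fell, and of the 29 with fewer 1 fell. With Zscan4c raised, 2 rose and 6 fell among 34 such members, and 3 fell among the 29 others. The 45 members called in no comparison had between 20 and 440 reads over the 4 knockdown libraries, with log2 fold changes from -1.21 for Hist1h4b to 0.94 for Hist2h4. In the overexpression arm they had 20 to 517 reads, with log2 fold changes from -1.22 for Hist1h1t to 1.40 for Hist1h2bj.

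Genes from a list of RNAs taken to lack a poly(A) tail were read beside the histones. The list also names Malat1 and Neat1, and whether all transcripts of its genes lack the tail was not checked. Of 133 such genes measured in the knockdown arm, mostly small nuclear and nucleolar RNAs, 5 rose and 1 fell, and of 124 in the overexpression arm 10 rose and 4 fell, each under the shares of all genes. In the knockdown arm they summed to 103178 and 87608 normalised reads in KD Zscan4, against 132261 and 94445 in KD control. The overexpression arm had sums of 63301 and 85865 in OE Zscan4, against 74254 and 78885 in OE control. The groups overlapped in both arms, and 1 ribosomal RNA gene held most of each sum. The part of such RNA in the histone values was not tested.

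Promoters were read from RefSeq (GRCm38.p6), in windows of 300 bases around the start, for 56 of the 64 members. These 4 sets of letters were searched on both strands. CCAAT, a box bound by the factor NF-Y, stood in 47 of 56 members (83.9%) and in 37.3% of 32794 other promoters. It was present in every H1, H2A, H2B and H3 promoter read and in 3 of 12 H4 promoters. TATAAA stood in 30 members (53.6%) and 13.5% of other promoters, TTTGCAT, part of the octamer bound by POU factors, in 11 members (19.6%) and 4.60%, and TGCACAC in 3 members (5.36%) and 4.39%. Of the 5 promoters read among genes with a higher effect in the overexpression arm 2 held CCAAT, and of the 5 among genes with a lower effect all 5 did, a division that also follows class. The promoters of Hist1h1a and Hist1h1b, which fell together in OE Zscan4 cells, and of Hist1h4i, which rose, are shown 5′ to 3′ on the strand of the gene, with CCAAT or its reverse complement and TATAAA in capitals.
Hist1h1a, chr13:23763418-23763717, plus strand: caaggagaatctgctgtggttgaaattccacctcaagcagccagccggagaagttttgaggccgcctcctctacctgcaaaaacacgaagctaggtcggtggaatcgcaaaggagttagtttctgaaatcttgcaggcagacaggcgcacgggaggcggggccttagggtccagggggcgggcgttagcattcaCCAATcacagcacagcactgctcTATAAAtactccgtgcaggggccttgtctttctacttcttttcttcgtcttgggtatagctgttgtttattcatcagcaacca
Hist1h1b, chr13:21780576-21780875, minus strand: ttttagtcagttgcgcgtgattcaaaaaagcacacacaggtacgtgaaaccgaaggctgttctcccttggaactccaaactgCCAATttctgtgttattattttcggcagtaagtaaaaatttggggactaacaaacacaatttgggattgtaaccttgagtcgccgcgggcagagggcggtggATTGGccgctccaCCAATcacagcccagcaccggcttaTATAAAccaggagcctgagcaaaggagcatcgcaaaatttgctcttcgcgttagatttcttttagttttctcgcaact
Hist1h4i, chr13:22041313-22041612, minus strand: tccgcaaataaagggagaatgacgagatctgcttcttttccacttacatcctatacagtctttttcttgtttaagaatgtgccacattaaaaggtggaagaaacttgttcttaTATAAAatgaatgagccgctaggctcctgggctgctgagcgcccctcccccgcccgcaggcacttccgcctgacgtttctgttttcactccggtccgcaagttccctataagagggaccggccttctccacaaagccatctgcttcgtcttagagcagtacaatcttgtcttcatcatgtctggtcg
A run of such letters is a description of the window and not a measured binding site.

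Other genes of the same pathway were read from lists of their roles, whose counts stand beside the shares of all genes: 17.2% higher and 18.5% lower in the knockdown arm, and 22.3% higher and 22.1% lower in the overexpression arm. Slbp had 3129.6 and 3134 normalised reads in the KD Zscan4 libraries, against 3138 and 3115 in the KD control libraries, level in all 4 libraries, with a log2 fold change of 0.00 (SE 0.05, adjusted p = 0.977). In the overexpression arm it had 3573 and 3736 normalised reads in the OE Zscan4 libraries, against 2821 and 2609 in the OE control libraries, where both OE Zscan4 libraries were higher, with a log2 fold change of 0.43 (SE 0.07, adjusted p = 6.59e-05). Of 30 genes of histone mRNA processing and decay 6 rose and 4 fell in the knockdown arm, close to the share of all genes, and 16 rose and 4 fell in the overexpression arm. Their median log2 fold change was 0.11 in the knockdown arm and 0.22 in the overexpression arm, against medians of 0.01 and -0.0022 over all genes. Lsm11, a component of the U7 particle, fell in both, with a log2 fold change of -0.35 (SE 0.10, adjusted p = 0.0165) in KD Zscan4 cells and a log2 fold change of -0.50 (SE 0.10, adjusted p = 5.89e-04) in OE Zscan4 cells. Npat, the activator of histone gene transcription in S phase, rose in both, with a log2 fold change of 0.31 (SE 0.10, adjusted p = 0.0276) in KD Zscan4 cells and a log2 fold change of 0.30 (SE 0.09, adjusted p = 0.0104) in OE Zscan4 cells.

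Of 24 histone chaperones and their partners 7 rose and 7 fell in the knockdown arm, and 14 rose and 2 fell in the overexpression arm, with median log2 fold changes of -0.05 and 0.29, against 35.7% and 44.3% of all genes called in either direction. Asf1a, which hands H3 and H4 to other chaperones, had 1108 and 1094 normalised reads in the OE Zscan4 libraries, against 586 and 549 in the OE control libraries, the OE Zscan4 libraries being the higher, with a log2 fold change of 0.95 (SE 0.08, adjusted p = 5.79e-08). In KD Zscan4 cells its log2 fold change was -0.27 (SE 0.07, adjusted p = 0.0081). Of 32 genes of S phase 7 rose and 11 fell in the knockdown arm, and 15 rose and 4 fell in the overexpression arm, with median log2 fold changes of -0.02 and 0.20. All genes had 17.2% higher and 18.5% lower in the knockdown arm, and 22.3% higher and 22.1% lower in the overexpression arm. The list holds inhibitors as well as drivers of S phase: Cdkn1a, an inhibitor of cyclin-dependent kinases, fell in OE Zscan4 cells with a log2 fold change of -1.35 (SE 0.07, adjusted p = 3.64e-10), while Tyms, which makes thymidylate for DNA, rose with a log2 fold change of 0.91 (SE 0.07, adjusted p = 3.04e-08) and the cyclin gene Ccne1 with a log2 fold change of 0.68 (SE 0.06, adjusted p = 2.16e-07). In KD Zscan4 cells Ccne1 fell with a log2 fold change of -0.32 (SE 0.05, adjusted p = 3.84e-04), and another inhibitor gene, Cdkn1c, fell with a log2 fold change of -2.85 (SE 0.14, adjusted p = 5.59e-08). The part of the cell cycle in the histone values was not tested.

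Variant histones, which are made outside S phase as well and carry poly(A) tails, were read from a list of 14. Of 12 measured in each arm, 6 rose and 2 fell in KD Zscan4 cells, where 17.2% of all genes rose and 18.5% fell. In OE Zscan4 cells 3 rose and 5 fell, where 22.3% of all genes rose and 22.1% fell. The median log2 fold changes of the list were 0.14 in the knockdown arm and -0.06 in the overexpression arm, and the list was not tested against the replication-dependent genes. H1f0, the linker histone of resting cells, had 3099 and 3267 normalised reads in the KD Zscan4 libraries, against 2157 and 2228 in the KD control libraries, higher in both KD Zscan4 libraries, with a log2 fold change of 0.54 (SE 0.05, adjusted p = 1.44e-05). H3f3a, which encodes the replacement histone H3, rose in both arms, with a log2 fold change of 0.47 (SE 0.06, adjusted p = 7.56e-05) in KD Zscan4 cells and a log2 fold change of 0.62 (SE 0.07, adjusted p = 3.01e-06) in OE Zscan4 cells. H2afx, whose product marks DNA breaks when phosphorylated, was among the 13 other protein-coding genes with the hairpin and is known to make both hairpin and poly(A) transcripts. It had 8635 and 8186 normalised reads in the KD Zscan4 libraries, against 13038 and 13352 in the KD control libraries, with both KD Zscan4 libraries the lower, and a log2 fold change of -0.65 (SE 0.05, adjusted p = 1.37e-06). In the overexpression arm its log2 fold change was 0.05 (SE 0.07, adjusted p = 0.568). H2bfm, a histone gene on the X chromosome that also carries the hairpin, was measured in the overexpression arm and averaged 7.95 ± 0.716 normalised reads in OE Zscan4 and 33.6 ± 3.77 in OE control (SD, n = 2 each). Its log2 fold change was -1.95 (SE 0.38, adjusted p = 4.14e-04).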

How the data were processed

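Messenger RNA of 8 libraries in 4 groups of 2 was measured. Per the submitters' processing notes the reads went through cutadapt, HISAT2, featureCounts and DESeq2 with mm10, without versions. The deposited gene tables hold, for each arm, a normalised signal per gene, which the authors had made by dividing read counts by a size factor per library. All values (100%, within 0.01 of a whole number) gave back whole reads. The members, lists and rules were chosen with earlier results of these data known. Values were tested per arm on log2(value + 1) of all rows with limma 3.58.1 (trend, R 4.3.3), two-sided, with Benjamini-Hochberg adjustment over all rows and a false discovery rate of 0.05. The difference of the effects was tested over genes of both tables. The per-arm test was run on simulated counts with the same noise setting for every gene. Changes were planted only in genes with a mean above 10, so the run does not cover the lowest members. The test of the difference was not run on simulated counts. Fold changes on this scale understate those of low genes. Alternatives were pseudocounts of 0.5 and 5, a mean of at least 10, TMM factors, edgeR 4.0.16 and DESeq2 1.42.0 on recovered reads, a replicate block, and leaving out each library. The named members were every called member, the 10 highest, the highest of each class and the polyadenylated list, and from other lists Slbp and up to 4 of the largest called changes. GENCODE vM21 held 99.9% of the IDs of the knockdown table and 99.8% of the other. Replicates differed by more than sampling noise (chi-square per degree of freedom 2.94 to 4.96). No repeat name of an RNA without poly(A) was found among the 767 and 834 names of the deposited repeat tables, which were not used further. Counts of reads have no molecular identifiers stated.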

Additional observations from a re-analysis of the deposited data

Results flagged for a closer look

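For 11 histone genes the effect of the Zscan4 agent differed between the overexpression arm and the knockdown arm, by a limma test of the difference itself with Benjamini-Hochberg adjustment over the 17409 genes of both tables. The difference, overexpression arm minus knockdown arm, was 3.29 on the log2 scale for Hist1h4j, 2.16 for Hist1h4h, 1.83 for Hist1h2bh and 1.81 for Hist1h4i. It was 1.55 for Hist1h4a and 1.04 for Hist1h2bc. On the other side it was -1.70 for Hist1h1b, -1.54 for Hist1h4d and -1.25 for Hist1h1a, all 3 of them negative in the overexpression arm and positive in the knockdown arm. It was -0.87 for Hist1h3e and -0.81 for Hist3h2ba. A share of 18.6% of the members against 44.7% of all shared genes passed this test, without matching for depth. The arms also differ in vector, drug and days of selection, which cannot be told apart from the Zscan4 agent in this contrast.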

How the results depend on the processing

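DESeq2 called 3 histone genes in the knockdown arm and 5 in the overexpression arm. Of genes of any kind it called 4141 and 5661, where limma called 6403 and 8111. Leaving out 1 library at a time gave 4 to 11 histone genes called in the knockdown arm, with medians of -0.56 to -0.15, and 5 to 12 called in the overexpression arm, with medians of -0.36 to -0.03. For the difference of the effects it gave 5 to 11. In these fits the lone library of a group is assumed to vary like the others. Within each arm every such fit also called fewer genes of any kind than the fit with all 4 libraries. No value of a named gene that passed the test changed sign under any alternative run. With the replicate number as a block 11 members were called in the knockdown arm, 12 in the overexpression arm and 9 in the difference, where Hist1h4a and Hist3h2ba were lost. Libraries with the same number did not deviate together (r = -0.034 in the knockdown arm and -0.033 in the overexpression arm). With 2 libraries per group this check showed no pairing by number and cannot exclude it. TMM factors moved the median of all genes to -0.017 in the overexpression arm. With a mean of at least 10 required, Hist1h4c was not tested in the overexpression arm. Depth limits most members: the median member had 68.5 reads over the 4 knockdown libraries.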
